A study of Mus musculus with 3 samples.

Results

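Endothelial junction and leukocyte adhesion genes are described here in RNA from cells sorted out of mouse lung. The set holds 10 genes, Cdh5, Pecam1, Cldn5, Esam, Icam1, Icam2, Vcam1, Sele, Selp and Vwf, each matched by symbol to 1 row of a count table of 48709 genes. The table covers 3 libraries in 1 group, which the titles call WT and the columns call controls, so there was no second condition to compare with. The mice were transgenic for a tamoxifen-switched Cre recombinase, creERT2, under smooth muscle actin, and for the red fluorescent protein tdTomato. Tamoxifen was injected intraperitoneally at 75 mg/kg daily for 10 days from an age of 8 weeks, and lungs were taken, digested and sorted 2 months later. The cells are labelled as lung smooth muscle. Neither sorting marker nor gate is stated in the sources used here. Every animal of the series carried the transgenes and had tamoxifen. No label ties a library to a separate mouse or pool, so p-values measure only the spread between these libraries, which may be technical.

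Endothelial cells line every vessel and hold to each other through adherens junctions, built on the cadherin encoded by Cdh5, and tight junctions, sealed in many vessels by claudin 5. Leukocytes leave the blood in steps: selectins on the endothelium catch and roll them, immunoglobulin-family ligands such as ICAM-1, ICAM-2 and VCAM-1 hold their integrins, and PECAM-1 and ESAM act while they pass between the cells. Icam1, Vcam1 and Sele are switched on by inflammatory cytokines through NF-kappaB, whereas Cdh5, Pecam1, Cldn5, Esam and Icam2 are present in resting endothelium. P-selectin (Selp) and von Willebrand factor (Vwf), the protein that tethers platelets, are stored in Weibel-Palade bodies of endothelium and in platelet granules. None of these roles was measured here.

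Upstream sequences of 4 of the 10 genes, Sele, Icam1, Selp and Cldn5, could be matched by symbol in RefSeq (GRCm38.p6), and all 4 are shown. Whether any motif bears on the level of a gene was not tested. Each is the 250 bases before the annotated start, on the plus strand, at chr1:164047984-164048233 for Sele, chr9:21015690-21015939 for Icam1, chr1:164115014-164115263 for Selp and chr16:18776597-18776846 for Cldn5. Capitals mark any match, on either strand, to GGANNTTCC (a core of the NF-kappaB site), TATAAA (the TATA box), TGANTCA (the AP-1 site) or GGGCGG (the GC box, read here as its reverse complement).
Sele: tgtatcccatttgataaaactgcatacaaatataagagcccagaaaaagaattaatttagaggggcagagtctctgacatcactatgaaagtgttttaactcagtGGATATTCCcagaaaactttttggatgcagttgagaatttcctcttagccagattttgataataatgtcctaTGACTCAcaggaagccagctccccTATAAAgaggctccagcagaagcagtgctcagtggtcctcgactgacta
Icam1: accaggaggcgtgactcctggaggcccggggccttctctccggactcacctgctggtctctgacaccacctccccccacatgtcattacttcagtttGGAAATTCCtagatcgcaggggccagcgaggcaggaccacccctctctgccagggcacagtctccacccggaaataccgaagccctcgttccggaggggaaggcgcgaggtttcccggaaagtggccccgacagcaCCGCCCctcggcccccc
Selp: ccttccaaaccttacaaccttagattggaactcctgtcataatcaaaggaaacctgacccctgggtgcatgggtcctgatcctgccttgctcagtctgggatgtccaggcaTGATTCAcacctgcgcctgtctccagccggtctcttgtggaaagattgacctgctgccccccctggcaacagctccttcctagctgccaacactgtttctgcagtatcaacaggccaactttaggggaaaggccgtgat
Cldn5: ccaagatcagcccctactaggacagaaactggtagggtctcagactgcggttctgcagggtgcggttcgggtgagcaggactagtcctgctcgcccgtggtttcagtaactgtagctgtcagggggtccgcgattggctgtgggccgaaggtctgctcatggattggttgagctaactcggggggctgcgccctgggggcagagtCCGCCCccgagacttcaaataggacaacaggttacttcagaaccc
Of 32851 windows of this length in the same table, 3.59% held GGANNTTCC, 12.4% TATAAA, 6.75% TGANTCA and 32.7% GGGCGG. GGANNTTCC was found in Sele, 145 bases before the start, and in Icam1, 153 bases before it. Sele also held TATAAA at 49 bases and TGANTCA, as TGACTCA, at 73 bases before the start. Selp held TGANTCA at 139 bases, as TGATTCA, whose middle T is not the C or G of the AP-1 site. Icam1 and Cldn5 held the GC box, at 17 and 45 bases before the start. No marked matches overlapped. A match is a run of letters in this window only.

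Library totals were 16877297 to 18896263 counts, so a gene with a count of 0 may still have had up to 3 counts, or 0.159 to 0.178 CPM (counts per 1000000 counts of the library). Intervals and limits cover counting error only. The 10 smooth muscle markers together had 88.3 to 119 CPM over the libraries, Acta2, the smooth muscle actin gene, had 11.2, 17.1 and 11.3 CPM, and the calponin gene Cnn1 had a count of 0 in library 1. The summed level of 20 endothelial markers, none of them among the 10 genes, was 1336, 603 and 903 CPM in libraries 1, 2 and 3, and that of 12 lymphocyte markers was 1036, 1204 and 1326 CPM. These sums are not corrected for exon length. Markers of several cell types were present in each of the 3 libraries, and in bulk RNA fewer cells of a type and less RNA per cell cannot be told apart.

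The adhesion genes spanned a wide range, with the adherens junction gene Cdh5 and Pecam1 at the top and the selectins at the bottom. Of the 10 genes, 9 had a mean of at least 1 CPM, 7 of at least 10 CPM and 2 of at least 100 CPM. Among 22005 nuclear protein-coding genes these levels were reached by 59.4%, 35.8% and 5.89%. The median over the 10 genes was 4.66 ± 0.64 log2(CPM + 1) (SD, n = 3), against 2.00 ± 0.08 for all nuclear protein-coding genes. Vcam1 at 8.10 CPM lay just under the level of 10 CPM, and Selp at 0.785 CPM just under that of 1 CPM.

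**Figure D1:**
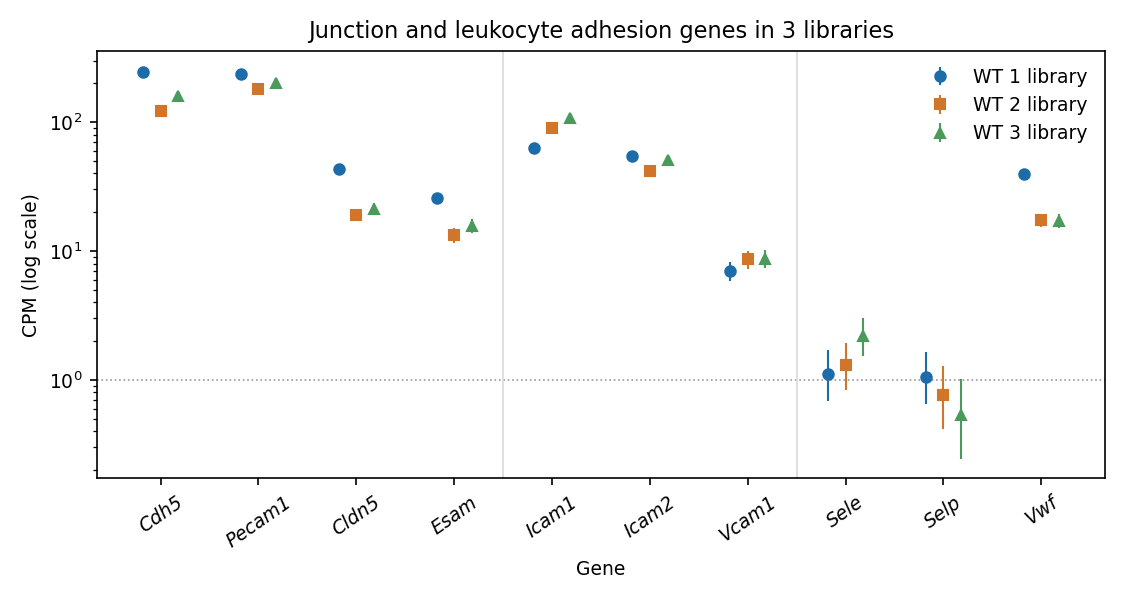
CPM of each gene (log scale, dotted line at 1 CPM) in WT libraries 1, 2 and 3; bars are exact 95% Poisson intervals of the count, for counting error only, and grey lines separate junction genes, immunoglobulin-family ligands, and selectins with Vwf. Cdh5 and Pecam1 lie above 100 CPM in each library, and Sele and Selp lie between 0.533 and 2.19 CPM.

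Because long transcripts collect more counts, levels of different genes were compared as CPM per kilobase of exon. On that scale the order from high to low was Cdh5, Pecam1, Icam2, Icam1, Cldn5, Esam, Vwf, Vcam1, Sele and Selp, with Cdh5 at 41.9 ± 15.01 and Selp at 0.178 ± 0.0597 CPM per kilobase. Neighbours in the order were taken to differ when their mean log2 ratio within libraries had 1 sign throughout and was at least 2 SD from 0. Pecam1 exceeded Icam2 by 0.36 ± 0.07 on the log2 scale, Cldn5 exceeded Esam by 1.59 ± 0.16, Esam exceeded Vwf by 2.11 ± 0.24 and Vcam1 exceeded Sele by 0.85 ± 0.40. Cdh5 and Pecam1 (0.29 ± 0.30), Icam2 and Icam1 (0.39 ± 0.52), Icam1 and Cldn5 (0.10 ± 1.01) and Vwf and Vcam1 (0.64 ± 0.87) did not differ beyond their spread. Sele and Selp were not compared as a ratio, since Selp had under 10 counts in library 3. Exons were the union over annotated transcripts. With the longest transcript as the length instead, the order was the same apart from Pecam1, at 59.9 CPM per kilobase, which then stood above Cdh5, at 44.0.

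**Figure D2:**
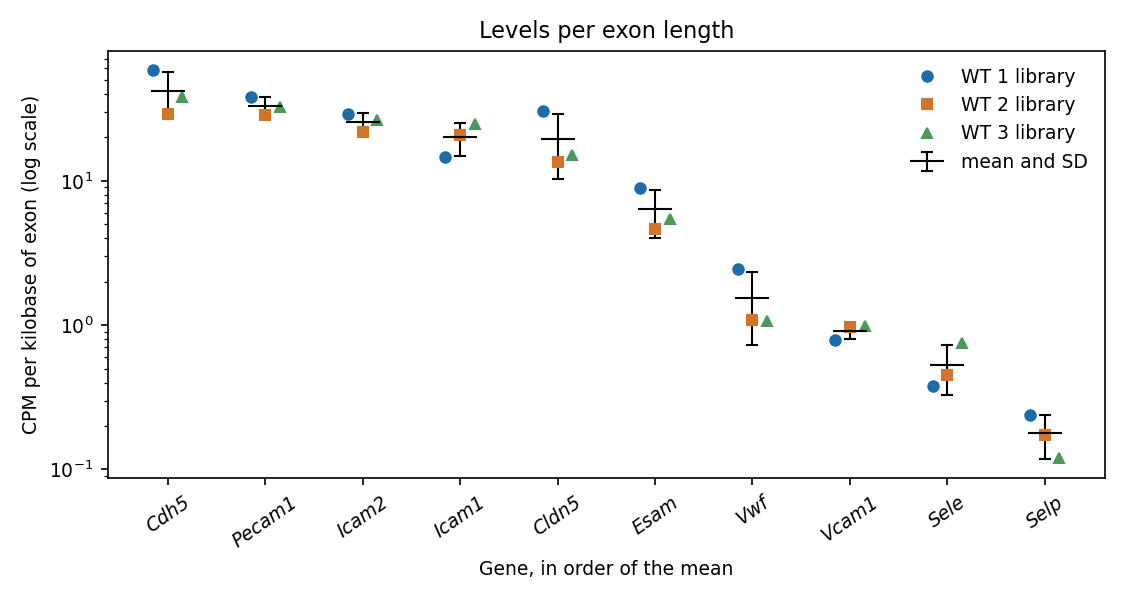
CPM per kilobase of exon (log scale) for the 10 genes in order of the mean; symbols are the 3 libraries, bars the mean and SD. The highest gene is Cdh5 at 41.9 and the lowest Selp at 0.178, and the libraries change order between neighbouring genes, as for Icam1 and Cldn5.

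The junction genes shared 1 order of libraries by CPM, with library 1 highest, library 3 next and library 2 lowest. The order of libraries 3 and 2 is uncertain for Pecam1, Cldn5 and Esam. Without library 1 they did not vary by the chi-square test described below (adjusted p 0.262, 0.836 and 0.518). Cdh5, which encodes VE-cadherin (ENSMUSG00000031871, chromosome 8, 104101625 to 104144511), had 4636, 2241 and 2705 counts in libraries 1, 2 and 3, or 245, 122 and 160.3 CPM. Library 1 thus had 2.01-fold the level of library 2. Pecam1, which encodes the CD31 molecule of endothelium, platelets and many leukocytes (ENSMUSG00000020717, chromosome 11, 106654217 to 106750628), had 237, 179 and 202 CPM, a span of 1.32-fold. It had the highest CPM of the 10 genes, at 206 ± 29.2, not corrected for length, and ranked 473 among nuclear protein-coding genes, with Cdh5 at rank 594.

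Cldn5, the claudin of endothelial tight junctions, is a gene of a single exon (ENSMUSG00000041378, chromosome 16, 18776847 to 18778260). It had 43.1, 19.0 and 21.2 CPM, so library 1 stood 2.27-fold above library 2. Esam, an immunoglobulin-family protein of endothelial tight junctions and platelets (ENSMUSG00000001946, chromosome 9, 37528078 to 37538319), had 25.7, 13.2 and 15.6 CPM, a span of 1.94-fold. Per kilobase Cldn5 lay below Cdh5 by a log2 ratio of -1.13 ± 0.20 and Esam by -2.72 ± 0.08. The ratio of Esam to Cdh5 had the smallest SD of the ratios to Cdh5, at -2.70, -2.65 and -2.81 in the 3 libraries. The ratio of Pecam1 to Cdh5 was -0.62, -0.01 and -0.23 and did not differ from 0 beyond its spread.

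The other junction proteins were taken from a list of 20 genes, of which 11 had a mean of at least 10 CPM. The list was led by Heg1, an endothelial membrane protein that acts at junctions, at 230 ± 35.4 CPM, and by the catenins Ctnnb1 and Ctnna1, which link cadherins to actin, at 136 ± 23.4 and 92.04 ± 11.8 CPM. The neural cadherin Cdh2 was the lowest at 0.319 ± 0.282 CPM, with no count in library 2. The catenins serve cadherins of every tissue. Of the 20 genes, 18 varied between libraries by the chi-square test described below, against 70.0% of all genes tested, and 11 varied and were highest in library 1, against 28.2%.

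Of the immunoglobulin-family ligands, Icam1 and Icam2 were abundant and Vcam1 was low. Icam1, the ligand of leukocyte beta 2 integrins (ENSMUSG00000037405, chromosome 9, 21015960 to 21028797), had 1197, 1660 and 1825 counts, or 63.3, 90.4 and 108 CPM. Library 1, the highest for Cdh5, was the lowest for Icam1, and library 3 stood 1.71-fold above it. Besides endothelium, alveolar type 1 cells and activated leukocytes express Icam1. Icam2, a shorter ligand of the same integrins that endothelium, lymphocytes and platelets carry (ENSMUSG00000001029, chromosome 11, 106377656 to 106388075), had 54.8, 41.6 and 50.6 CPM, with the library order of the junction genes and a span of 1.32-fold. For Icam2 too, libraries 2 and 3 did not differ by the chi-square test without library 1 (adjusted p 0.0634). Per kilobase the log2 ratio of Icam1 to Icam2 was -0.99 in library 1 but -0.07 and -0.10 in libraries 2 and 3. The mean of -0.39 ± 0.52 did not differ from 0 beyond its spread.

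Vcam1, the ligand of the integrin made of Itga4 and Itgb1 (ENSMUSG00000027962, chromosome 3, 116109949 to 116129688), had 132, 158 and 147 counts, or 6.99, 8.61 and 8.71 CPM. The 95% counting intervals, 5.84 to 8.28, 7.32 to 10.06 and 7.36 to 10.2 CPM, overlap. Library 1 was the lowest under each scaling tried, and the highest was library 3 by CPM but library 2 after TMM scaling. Per kilobase Vcam1 stood below Icam1 by a log2 ratio of -4.43 ± 0.23, which is 21.5-fold, and below Cdh5 by -5.46 ± 0.67. The median of the junction genes minus that of the 3 immunoglobulin-family ligands, per kilobase, was 1.23 in library 1 but -0.08 and -0.17 in libraries 2 and 3. The mean of 0.33 ± 0.78 was within its SD of 0, and it was -0.12 without library 1.

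The leukocyte side of these contacts was taken from a list of 14 genes. Of these integrin and selectin ligand genes, 13 had a mean of at least 10 CPM and 11 of at least 100 CPM, led by Itga4 at 738 ± 122, the sialomucin Spn at 389 ± 70.2 and Itgb2 at 337 ± 21.8 CPM. Cd177, a neutrophil surface protein, was the lowest at 0.325 ± 0.205 CPM, and at 0.114 CPM per kilobase it lay below Vcam1, Sele and Selp. The chains of the ICAM receptor LFA-1, Itgal and Itgb2, had 43.7 ± 5.17 and 110.4 ± 7.15 CPM per kilobase, against 20.02 ± 5.17 for Icam1 and 25.7 ± 3.56 for Icam2. Itga4 and Itgb1, which form the VCAM-1 receptor, had 52.8 ± 8.72 and 56.9 ± 9.68 CPM per kilobase, against 0.913 ± 0.109 for Vcam1. Selplg, the P-selectin ligand of leukocytes, had 65.4 ± 2.95 CPM per kilobase, whereas Selp and Sele had 0.178 ± 0.0597 and 0.528 ± 0.198. Itgb1, Cd44 and Glg1 are expressed by most cells, so their levels are not those of leukocytes alone.

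**Figure D3:**
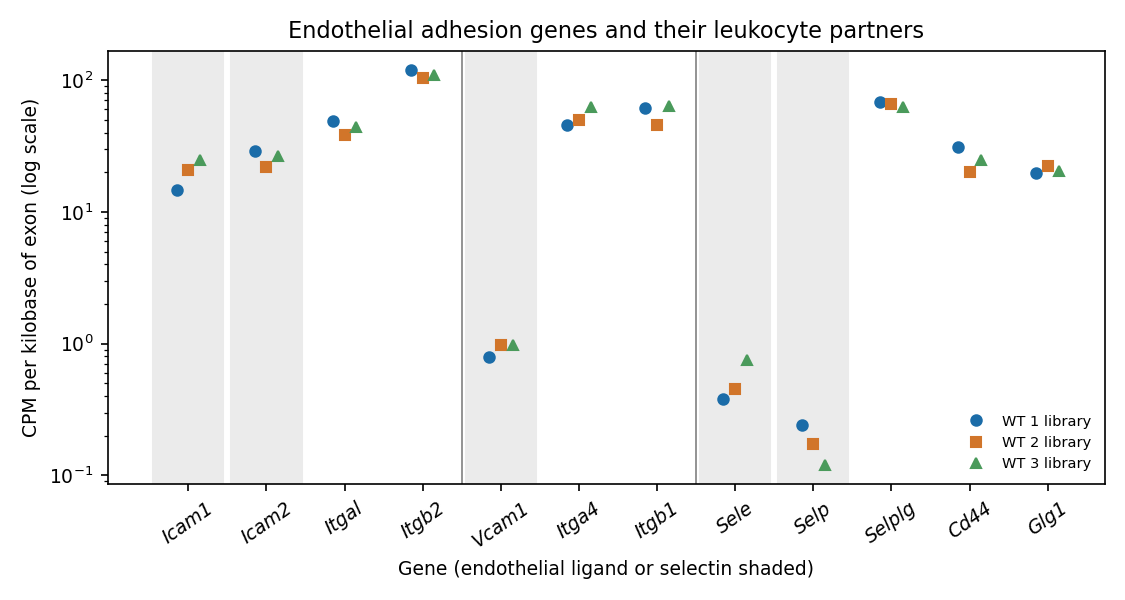
CPM per kilobase of exon (log scale) in the 3 libraries for endothelial ligands and selectins (shaded) and for genes of their leukocyte partners; vertical lines separate the ICAM, VCAM-1 and selectin contacts. Icam1 and Icam2 lie below Itgal and Itgb2, and Vcam1 at 0.913, Sele at 0.528 and Selp at 0.178 are the lowest of the genes shown.

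The endothelial selectins had the fewest counts of the 10 genes. Sele, a selectin of activated endothelium (ENSMUSG00000026582, chromosome 1, 164048234 to 164057677), had 21, 24 and 37 counts, or 1.11, 1.31 and 2.19 CPM. The 95% intervals were 0.688 to 1.70 CPM in library 1 and 1.54 to 3.02 CPM in library 3, which overlap. Selp (ENSMUSG00000026580, chromosome 1, 164115264 to 164150026) had 20, 14 and 9 counts, or 1.06, 0.763 and 0.533 CPM, with intervals of 0.647 to 1.63 CPM in library 1 and 0.244 to 1.01 CPM in library 3, which also overlap. The selectins had opposite orders of libraries, but at this depth neither varied by the chi-square test. Exons of 2 genes on the opposite strand cover 9.93% and 4.21% of the exon bases of Selp, and these genes had at most 2 counts in a library.

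Vwf (ENSMUSG00000001930, chromosome 6, 125546774 to 125686679) had 746, 318 and 289 counts, or 39.5, 17.3 and 17.1 CPM, the widest span of the 10 genes at 2.31-fold. Its union of exons is 16064 bases, the longest of the set, and per kilobase it had 1.53 ± 0.800 CPM and lay below Cdh5 by a log2 ratio of -4.83 ± 0.30. Vwf is known to be strong in veins and large vessels and weak in lung capillaries. Of 13 other genes of Weibel-Palade bodies and the Vwf protease, 7 had a mean of at least 10 CPM. They were led by Rab27a at 58.5 ± 12.1 and Unc13d at 46.3 ± 1.94 CPM, which lymphocytes use to release cytotoxic granules, and by Vamp3 at 19.1 ± 4.94 CPM, while the protease Adamts13 had 0.193 ± 0.209 CPM. Of their cargo, endothelin 1 (Edn1) had 12.1, 2.72 and 2.73 CPM, highest in library 1, whereas angiopoietin 2 (Angpt2) had 6.35, 10.8 and 7.11 CPM and the plasminogen activator Plat 15.9, 21.0 and 13.4 CPM, both highest in library 2.

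Platelets also contain Vwf, Selp, Pecam1, Esam and Icam2. Of 10 platelet markers, 9 had any count and 4 a mean of at least 1 CPM. Their summed level was 33.6, 45.2 and 44.0 CPM in libraries 1, 2 and 3. Most of it came from the integrin Itgb3, at 27.4, 37.5 and 32.9 CPM, which other cells share. Treml1 had a count of 0 in the 3 libraries, the chemokine Ppbp had 1 count in all, and Pf4 had 4, 6 and 12 counts. Clec1b had 46, 30 and 36 counts, Gp9 7, 4 and 6, and Gp6 9, 0 and 7, each highest in library 1. Itga2b had 50, 56 and 75 counts and Gp1ba 0, 43 and 44, both highest in library 3. Of these, Clec1b, Gp9 and Itga2b did not vary by the chi-square test described below (adjusted p 0.201, 0.689 and 0.0847). By CPM, 5 of the 10 markers were highest in library 3, and Itgb3 was highest in library 2. The part of platelets in the Vwf and Selp counts was not tested.

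Variation between libraries was tested for each gene by a chi-square test against counting error, which needs no second group. Of the 10 genes, 7 varied at an adjusted p under 0.05, but 70.0% of 23317 genes did so, a share near that of the set. The adjusted p ran from 3.78e-221 for Cdh5 to 9.93e-10 for Icam2, and it was 0.0972 for Sele, 0.146 for Selp and 0.370 for Vcam1. Of the 10 genes, 6 varied and were highest in library 1, namely the 4 junction genes, Icam2 and Vwf, against 28.2% of all genes tested. Icam1 alone varied and was lowest in library 1, against 28.2% of all genes tested. Of the 10 genes, 5 varied and were lowest in library 2 (22.5% of all genes tested) and Vwf was lowest in library 3 (19.3%), while Icam1 was highest in library 3 (19.9%) and none was highest in library 2 (22.0%). By CPM alone, 7 of the 10 genes were highest in library 1 and 3 in library 3, against 30.6% and 42.3% of genes with at least 10 counts, and 0 in library 2, against 27.0%. Without library 2 or library 3 the count stayed at 7, against 53.4% and 56.8% of all genes. Without library 1 only Cdh5 and Icam1 varied, at adjusted p of 1.20e-09 and 0.0192, against 38.2% of all genes.

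A difference of at least 2-fold between the highest and the lowest library was seen for 3 of the 10 genes, Cdh5, Cldn5 and Vwf, and for 25.0% of 16945 genes with a mean of at least 1 CPM. Among nuclear protein-coding genes with a mean of at least 10 CPM the share was 7.14%, a level that 7 of the 10 genes reached, these 3 among them. Esam, Sele and Selp lay just under 2-fold, at 1.94, 1.97 and 1.98, and Cdh5 just above, at 2.01. With library sizes scaled by the TMM method, 5 genes reached 2-fold, Esam and Selp being added, against 23.7% of genes with a mean of at least 1 CPM. Selp, at 0.796 CPM on that scale, lies under this level, and its span rests on 20 against 9 counts. The count was also 5 with DESeq2 size factors (23.8% of genes) and over nuclear protein-coding genes alone (29.2%). Without library 1 it was 0, against 8.93% of genes, and without library 2 or 3 it was 2 and 3, against 15.7% and 16.8%.

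**Figure D4:**
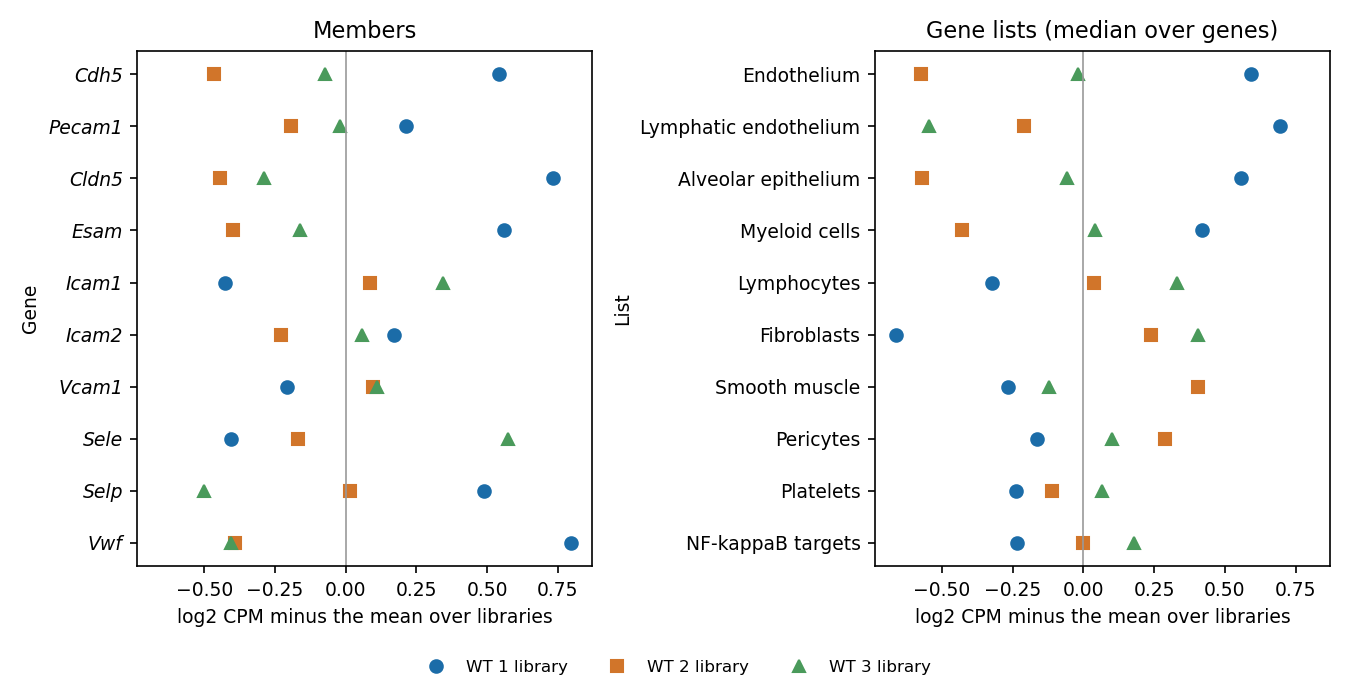
The log2 CPM of each library minus the mean over libraries, for the 10 genes (left) and as the median over genes with at least 10 counts in each library for marker and pathway lists (right). Library 1 is the highest for the junction genes, Icam2, Selp and Vwf and for the endothelial, lymphatic, alveolar and myeloid lists, and the lowest for Icam1, Vcam1 and Sele and for the lymphocyte, fibroblast, smooth muscle, pericyte, platelet and NF-kappaB target lists. Vcam1, Sele and Selp did not vary by the chi-square test. The platelet median rests on Itga2b, Itgb3 and Clec1b alone. Of 10 smooth muscle genes, 4 varied and were lowest in library 1 and 4 in library 3, against 28.2% and 19.3% of all genes tested.

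The junction genes and Vwf had their highest level in the library where endothelial markers were highest. Of the 20 endothelial markers, 20 varied and 20 were highest in library 1 after TMM scaling, 19 by CPM, with a median change from the mean over libraries of 0.59, -0.58 and -0.02 on the log2 scale in libraries 1, 2 and 3. Over all genes tested 70.0% varied and 28.2% varied and were highest there, and by CPM alone 30.6% were highest there. Alveolar epithelial markers, 13 of 13 detected, had a summed level of 2270, 519 and 633 CPM, most of it from the surfactant gene Sftpc at 1352, 246 and 284 CPM. Of these 13 genes, 10 varied and were highest in library 1, while Rtkn2 was lowest there, at 0.688, 3.05 and 7.11 CPM. Myeloid markers, 12 of 12 detected, had 943, 319 and 429.9 CPM, most of it from the lysozyme gene Lyz2 at 704, 189 and 235 CPM. Of these 12 genes, 8 varied and were highest in library 1 and 2 in library 3, among them the integrin Itgam at 18.9, 25.9 and 37.2 CPM. Lymphatic endothelial markers, 6 of 6 detected, had 330, 179 and 138 CPM, lowest in library 3. Vwf and Selp were lowest there too, but by the chi-square test these orders are uncertain. Vwf did not differ between libraries 2 and 3 (adjusted p 0.357 without library 1), and Selp did not vary (0.146). The part of each cell type in the differences between libraries was not tested.

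To place the genes beside endothelial content, each was also expressed as a percentage of the summed CPM of the 20 endothelial markers. Cdh5 was then nearly level, at 18.4%, 20.2% and 17.8% in libraries 1, 2 and 3, a span of 1.14-fold. Esam, at 1.93%, 2.20% and 1.73%, and Cldn5, at 3.22%, 3.15% and 2.35%, spanned 1.27-fold and 1.37-fold. Vwf spanned 1.56-fold and was the lowest in library 3. Pecam1, at 17.8%, 29.7% and 22.4%, and Icam2, at 4.10%, 6.89% and 5.61%, were highest in library 2 and lowest in library 1, with spans of 1.67-fold and 1.68-fold. Icam1 and Vcam1 had this order too, which is the reverse of the order of the summed endothelial markers themselves. Icam1 had 4.74%, 14.997% and 11.98%, a span of 3.16-fold, and Vcam1, Sele and Selp spanned 2.73-fold, 2.92-fold and 2.14-fold. On this scale 4 of the 10 genes reached 2-fold, against 72.8% of 16945 genes with a mean of at least 1 CPM, a level that Selp does not reach.

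The patterns most like each gene were looked for among 194 genes of the other lists, as the root-mean-square difference of centred log2 CPM over the 3 libraries. With 3 libraries many genes share a pattern, and the number of nuclear protein-coding genes at least as close, the named gene included, of 12863, is given for that reason. Nearest to Cdh5 was Robo4, a receptor of endothelium, at 0.00458, with 1 gene as close, and then the neutrophil gene S100a9 at 0.0269, with 21. Nearest to Cldn5 were the arterial connexin gene Gja5 at 0.0154, with 1 gene as close, and Plvap, the diaphragm protein of endothelial openings, at 0.0349, with 6. Gja5 had 51, 22 and 23 counts, so how close it lies is uncertain. Nearest to Vwf was the lymphatic receptor Lyve1 at 0.0622, with 20. Pecam1 lay nearest to Ctnna1 at 0.0160 and then to the leukocyte integrin Itgal at 0.0344, with 24 and 125 genes as close, and Icam2 nearest to Itgal at 0.0376, with 153. Icam1 lay nearest to Relb, an NF-kappaB subunit, at 0.0333 and to the B cell gene Cd79b at 0.0362, with 79 and 97 genes as close. Esam lay nearest to the neutrophil gene S100a9 at 0.0445, with 39 genes as close, and Sele to the natural killer receptor Klrd1 at 0.0766, with 102. Sele had only 21, 24 and 37 counts and did not vary by the chi-square test, so its pattern cannot be told from counting error.

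Icam1, Vcam1 and Sele were set beside other genes that cytokines induce through NF-kappaB. Of 14 such genes 13 had enough counts to be tested. Of these 13 genes 8 varied, against 70.0% of all genes, and 7 varied and were lowest in library 1, where Icam1 was lowest too, against 28.2% of all genes. The deubiquitinase Tnfaip3 led the list at 802 ± 46.4 CPM, followed by the inhibitor Nfkbia at 247 ± 33.5 and Nfkb1 at 177 ± 12.9 CPM, while the cytokine Csf3 had 1 count, in library 3. The chemokine Cxcl1 had 0.953, 9.75 and 11.6 CPM, low in library 1 alone. Of 13 genes of cytokines, receptors and factors upstream, 13 had a mean of at least 10 CPM, led by Rel at 238 ± 83.7 and Ikbkb at 168 ± 25.5 CPM, and 12 varied without a common library. Rel had 150.2, 246 and 317 CPM, the order of Icam1, while the tumour necrosis factor receptors Tnfrsf1a and Tnfrsf1b were highest in library 1. Lymphocyte markers, 12 of 12 detected, were split: 7 varied and were lowest in library 1, as Icam1 was, and 4 varied and were lowest in library 3, among them the T cell gene Cd3e at 153, 147 and 98.1 CPM. Whether leukocytes gave the Icam1 counts was not tested.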

How the data were processed

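RNA-seq of 3 libraries was analysed from the authors' deposited table, which holds unnormalized counts of reads for each gene, in whole numbers. Tools named, without settings, per the submitters' processing notes, were STAR 2.6.1d and featureCounts 1.6.3, besides Trimmomatic 0.38, DESeq2 1.18.1 and FastQC. The notes name human builds, whereas the gene IDs are mouse: of 48349 IDs shared with GENCODE M21 (GRCm38), 42754 had identical coordinates. Among the 10 genes, Cldn5 and Icam1 did not, and coordinates are printed as deposited. Per the labels' protocols, the libraries were made from total RNA with a stranded kit; whether counting used strand is not stated in those sources. An antisense gene that was not analysed here covers 11.7% of the exon bases of Icam1, so its level is uncertain. At most 2.27% of the 50-base words of any of the 10 genes occur in transcripts of other genes.

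Columns were assigned to the WT libraries by number. Levels are CPM by library totals; log values use a pseudocount of 1, and ratios use none and need at least 10 counts in each library. Lengths are unions of GENCODE M21 exons. The chi-square test of homogeneity used TMM library sizes (edgeR 4.0.16, R 4.3.3), genes with at least 10 counts and Benjamini-Hochberg adjustment over 23317 genes. It was tried on simulated counts that held only counting error and planted changes. That trial cannot show how the test behaves where libraries spread beyond counting error, as they do here. For ratios within 3 libraries the smallest p of an exact permutation test (two-sided, sign changes) is 0.25, so they carry no test. The 10 genes and 19 other gene lists were chosen with earlier results of these data known. Named genes are the 10, the 3 highest and the lowest of a list as far as needed, and the nearest patterns (that of Vcam1 is not reported here); Angpt2, Edn1, Plat, Cxcl1, Rtkn2, Itgam, Cd3e, Cd34, Chst2, Podxl, Mcam, Tnfrsf1a, Tnfrsf1b, the leukocyte partners and some platelet and vessel genes were picked after their values were seen, as were the motifs and the scaling to endothelial markers. Acta2, the smooth muscle actin gene, was also named outside this rule. Alternatives were other library scalings, pseudocounts, count filters, lengths, and leaving out each library.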

Additional observations from a re-analysis of the deposited data

How the results depend on the processing

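The number of genes that varied between libraries was 7, and 2 to 7 when each library was left out in turn; it was 2 without library 1, where Pecam1, Cldn5, Esam, Icam2 and Vwf had adjusted p of 0.262, 0.836, 0.518, 0.0634 and 0.357. With library totals 8 genes varied, Sele being added at an adjusted p of 0.0318. The number spanning at least 2-fold was 3, and 5 with TMM scaling, 5 with DESeq2 size factors and 5 with CPM over nuclear protein-coding genes alone, since Esam and Selp lie near 2-fold; it ran from 0 to 3 when each library was left out. The median level was 5.39 log2(CPM + 1) over nuclear protein-coding genes alone, where the totals are smaller by construction, and 4.29 to 4.86 when each library was left out. The number of genes with a mean of at least 10 CPM was 7 or 8 under the scalings tried. The junction median minus that of the immunoglobulin-family ligands had no common sign: it was -0.19 with the longest transcript as length and -0.12 to 0.58 when each library was left out. Ratios depend on the length used, and that of Pecam1 to Cdh5 was 0.49 with the longest transcript. No paired analysis was possible because the series has 1 group. Depth limits Sele and Selp, whose largest count was 37.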

Other observations

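Genes of vessel types were also counted by library. Over all genes tested, 28.2% varied and were highest in library 1, 22.0% in library 2 and 19.9% in library 3. By CPM alone, 30.6% were highest in library 1 and 42.3% in library 3. Lymphatic genes were high in library 1: of 6 genes, 6 varied and were highest there, and the chemokine Ccl21a had 139, 83.9 and 61.3 CPM. Of 8 arterial genes, 7 varied and were highest in library 1 after TMM scaling and 6 were highest there by CPM, led by the ligand Efnb2 at 69.5, 52.9 and 40.3 CPM. Capillary genes were split: of 10 genes, 5 were highest in library 1 and 4 in library 3 after TMM scaling, but 4 and 5 by CPM, since Prx, at 58.6, 31.1 and 63.4 CPM, changes sides. Those highest in library 1 on both scales include the receptor Kit at 45.6, 18.2 and 25.3 CPM, and those highest in library 3 include Car4, the carbonic anhydrase of aerocytes, at 32.3, 27.7 and 50.4 CPM. Of 6 genes of veins and large vessels, 5 were tested and 5 varied. After TMM scaling 1 was highest in library 1, the receptor Ephb4 at 31.3, 14.7 and 18.1 CPM, 3 in library 2 and 1 in library 3. Lowest in library 1 were 3 of them, against 28.2% of all genes tested. Among these was Bgn, the highest of the list, at 90.5, 149 and 183 CPM. Ackr1, a chemokine-binding protein of venules, had 1 count in all, in library 3.

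Among 13 other docking and adhesion genes the ligands Madcam1 and Glycam1 had 1 count each, both in library 3, and among 10 enzymes of selectin ligands the sulfotransferase Chst4 had a count of 0 throughout, with a limit of 0.178 CPM in library 3 from 3 counts, while Chst2, of the same family, had 9.55 ± 2.57 CPM. The integrin chain Itgb7, which lymphocytes carry as part of the receptor of MAdCAM-1, had 139 ± 14.0 CPM. In the former list the membrane linkers Msn, Ezr and Rdx led at 842 ± 19.4, 330.0 ± 25.3 and 145 ± 8.70 CPM, and in the latter B4galt1 led at 76.0 ± 9.17 CPM. Podxl and Mcam, which endothelium expresses, had 111, 43.8 and 78.9 CPM and 43.0, 17.6 and 27.9 CPM, the library order of Cdh5, whereas Cd34, which endothelium also expresses, had 23.6, 32.0 and 46.2 CPM, lowest in library 1. Fibroblast markers had a summed level of 421, 990.0 and 959.8 CPM, and pericyte markers 68.1, 124 and 94.9 CPM.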
